A study of Mus musculus with 8 samples.

Results

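The thermogenic genes of brown fat examined here are 10 mouse genes that are commonly read as markers of heat-producing adipocytes: the uncoupling proteins Ucp1, Ucp2 and Ucp3, the lipid droplet protein Cidea, the transcriptional coactivators Ppargc1a and Ppargc1b, the deiodinase Dio2, the fatty acid elongase Elovl3 and the cytochrome c oxidase subunits Cox7a1 and Cox8b. They were found as every probe set of the deposited signal table that carried one of these symbols and no other gene. This gave 15 probe sets of 10 genes, out of 22626 non-control probe sets and 13243 genes in all. The samples were 4 of cells treated with 3.3 nM BMP7 (bone morphogenetic protein 7) for 3 days and 4 of cells given vehicle for 3 days, called the BMP7 and Vehicle arrays. Both groups were C3H10T1/2 cells, a mouse mesenchymal cell line, grown to confluence before treatment, and the labels name no other agent, no differentiation cocktail and no genetic change. RNA from each sample was hybridised to an Affymetrix Mouse 430A array and summarised per probe set by MAS5, which gives a linear signal intensity.

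Brown adipocytes make heat by letting protons return to the mitochondrial matrix without making ATP, and UCP1 is the inner membrane protein that carries out this uncoupling. Noradrenaline acting through cAMP, and thyroid hormone activated inside the cell by type 2 deiodinase, are the known inputs that switch the programme on, and the PGC-1 coactivators encoded by Ppargc1a and Ppargc1b raise mitochondrial and thermogenic genes together. BMP7 is a known inducer of brown adipocyte commitment, and C3H10T1/2 cells can be directed to the adipocyte lineage.

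No thermogenic gene passed the test between BMP7 and Vehicle arrays after these 3 days. Only 5 of the 15 probe sets, of 4 genes, entered the test with a signal filter, in which 3.13% of all probe sets passed. In the fit of all probe sets 1.54% passed. With so few probe sets at such shares, a count of 0 does not set the members apart from other genes. Ucp1 and Cidea, the most specific markers of brown adipocytes among the 10, gave signals under the highest of 27 bacterial control probe sets on every array. Ucp2, which is expressed in many cell types, was the only member that lay above the median probe set on all 8 arrays. Ppargc1b was the only member whose BMP7 and Vehicle values did not overlap, which was also the case for 11.5% of all non-control probe sets. Its difference on the log2(signal + 16) scale, BMP7 minus Vehicle, was -1.49, and it did not pass after adjustment. Its signal was above the highest bacterial control on only 2 of 4 BMP7 arrays, so no fold is given.

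The arrays were scaled to a trimmed mean of 1500.4 to 1500.7, and their median signals ran between 488 and 622. Vehicle 3 stood apart: its 3′ to 5′ signal ratio for Actb, a measure of RNA or cRNA integrity, was 6.55, against 1.17 to 1.40 on the other 7 arrays. The hybridisation controls averaged 11.71 to 11.95 (log2) on BMP7 arrays and 11.91 to 13.24 on Vehicle arrays, with Vehicle 1, 2 and 3 above every BMP7 array. Fits with these controls as a covariate can therefore not fully separate them from the treatment. Array-to-array correlations were 0.947 to 0.966 within BMP7 and 0.855 to 0.944 within Vehicle. The treatment itself was readable: the inhibitory SMAD gene Smad6, a direct BMP target, averaged 6332 ± 1030 on BMP7 arrays and 636 ± 139 on Vehicle arrays (SD, n = 4 each), a 9.81-fold rise with limma adjusted p = 5.53e-05. Because bulk RNA was measured, fewer cells of a type and less RNA per cell cannot be told apart. Nothing in the labels ties the replicates to separate cultures. The p-values below therefore cover the spread among these samples only, and that spread may be technical.

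The promoter windows of the 3 uncoupling proteins and of Dio2 are shown because the thermogenic programme is classically switched on through cAMP, so that the cAMP response element is the motif a reader would look for first. Each window is the 250 bases before the RefSeq transcription start on GRCm38.p6, written 5′ to 3′ on the gene's strand. Capitals mark matches on either strand to the full cAMP response element TGACGTCA, its short form TGACG, the TATA box TATAAA, the CCAAT box and the GC box GGGCGG, so that a match on the other strand reads as the reverse complement. A full element always holds 2 overlapping matches of the short form.
Ucp1 (chr8:83290098-83290347, + strand): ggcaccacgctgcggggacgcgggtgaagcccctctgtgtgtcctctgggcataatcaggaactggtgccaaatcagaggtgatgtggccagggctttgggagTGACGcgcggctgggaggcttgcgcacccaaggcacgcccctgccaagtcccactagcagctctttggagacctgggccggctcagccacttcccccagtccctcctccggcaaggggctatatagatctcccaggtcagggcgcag
Dio2 (chr12:90739039-90739288, - strand): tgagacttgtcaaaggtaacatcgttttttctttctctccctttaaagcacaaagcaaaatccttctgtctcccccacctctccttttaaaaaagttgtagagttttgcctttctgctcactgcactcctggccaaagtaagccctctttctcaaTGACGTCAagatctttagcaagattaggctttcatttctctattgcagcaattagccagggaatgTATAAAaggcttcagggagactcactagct
Ucp2 (chr7:100493108-100493357, + strand): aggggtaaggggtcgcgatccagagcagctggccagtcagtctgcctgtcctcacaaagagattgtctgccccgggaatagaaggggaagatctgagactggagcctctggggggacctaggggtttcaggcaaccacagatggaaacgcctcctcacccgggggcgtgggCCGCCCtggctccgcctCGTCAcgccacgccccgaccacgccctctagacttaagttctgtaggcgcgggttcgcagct
Ucp3 (chr7:100472741-100472990, + strand): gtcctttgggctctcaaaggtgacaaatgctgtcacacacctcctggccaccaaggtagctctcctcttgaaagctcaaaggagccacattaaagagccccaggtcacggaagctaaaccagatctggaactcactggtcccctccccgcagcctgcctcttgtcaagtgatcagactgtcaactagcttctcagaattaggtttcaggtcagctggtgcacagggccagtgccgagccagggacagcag
The Dio2 window held 1 full cAMP response element and 1 TATA box in the least GC-rich of these windows, with 41.6% GC and 2 CpG. The full element was found in 1.55% of all 32851 promoter windows of the same length, and the TATA box in 12.4%. The Ucp1 window held 1 short form and was 64.8% GC with 12 CpG, and the Ucp2 window held 1 short form and 1 GC box at 63.6% GC with 16 CpG. The short form was found in 17.8% of all windows and the GC box in 32.7%. The Ucp3 window, at 54.8% GC with 3 CpG, held none of these motifs, which says only that these letters are not in this window. The median window of all genes was 52.4% GC. Windows for 7 of the 10 members were matched. Those not printed were of Ppargc1a (48.0% GC, 1 short form), Cox8b (47.2%, none of these motifs) and Cox7a1 (51.2%, 2 CCAAT boxes). The CCAAT box was found in 33.8% of all windows. A match is a description of sequence and was not set against the array values.

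To say whether a signal was above what an absent transcript gives, each probe set was read against 27 control probe sets for Bacillus genes, which mouse RNA does not hold. Whether the matching bacterial transcripts were added to the samples is not stated in the labels, so these probe sets are a level to compare with and not a strict blank. The highest of the 27 lay between 108 and 237 on the 8 arrays, and 65.8% to 78.1% of non-control probe sets lay above it. Of the 15 member probe sets, 5 were above it on all 8 arrays: Ucp2, Ucp3 1420657_at, Ppargc1a 1437751_at and 1456395_at, and Dio2 1418938_at. Another 8 were above it on some arrays, and the probe sets of Ucp1 and Cidea on none. Against the median of their own array, 1 probe set was above on all 8 arrays and 10 were below on all 8.

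**Figure D1:**
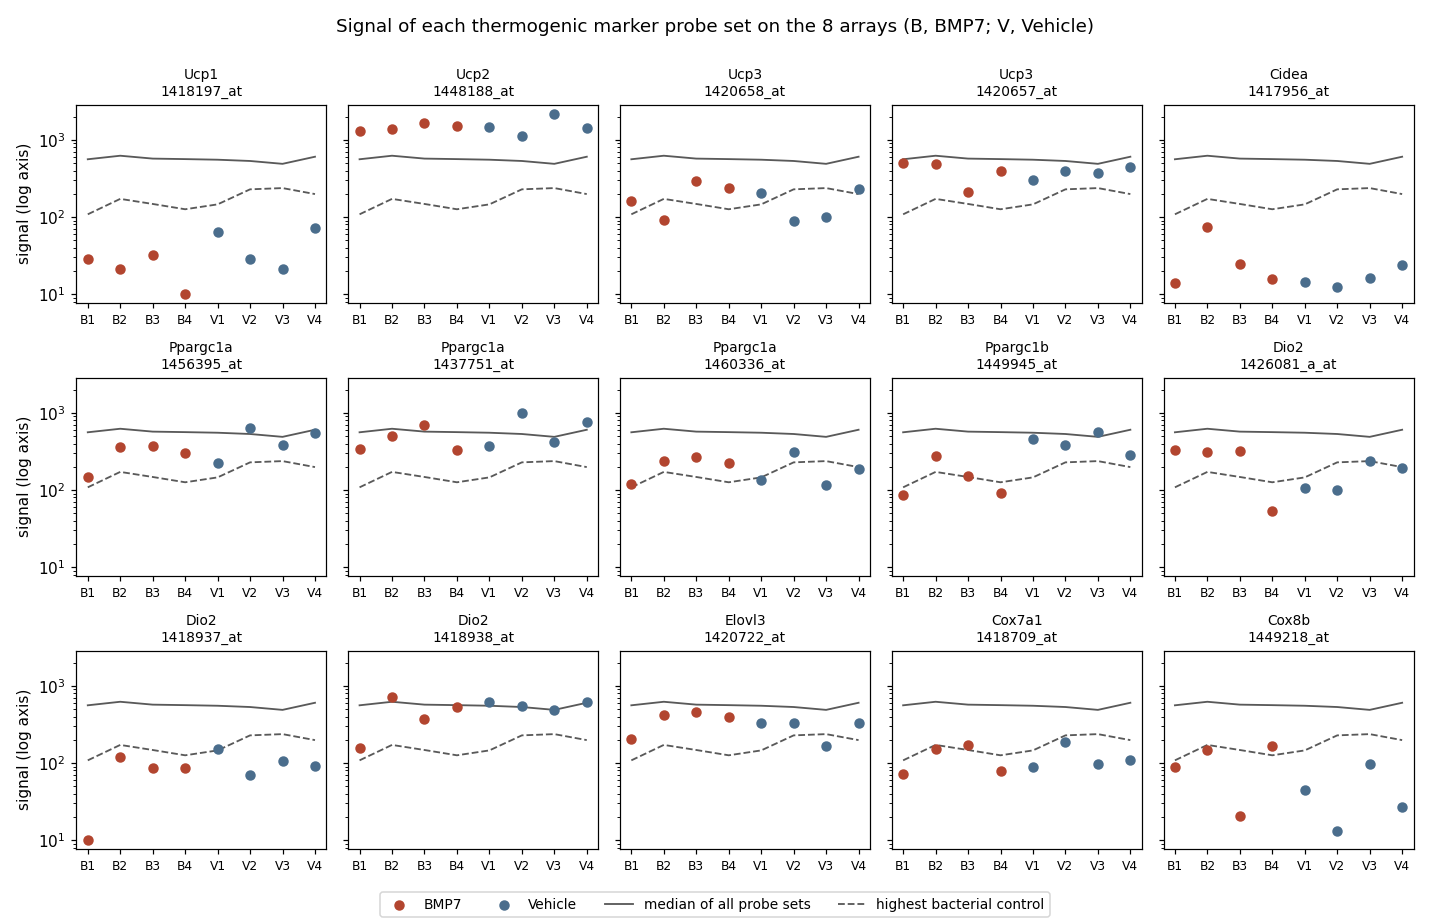
MAS5 signal (log axis) of each member probe set on the 4 BMP7 arrays and the 4 Vehicle arrays, 1 point per array, with a solid line for the median of all probe sets on each array (488 to 622) and a dashed line for the highest bacterial control (108 to 237). Ucp2 lies above the medians throughout, and Ucp1 and Cidea lie below the highest bacterial control on every array. Ppargc1b is the only one of these probe sets whose groups are separate, beside 11.5% of all non-control probe sets.

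Differences were tested with limma on log2(signal + 16) for the 13576 probe sets with a mean of log2 8.41 or more (a signal near 325), which is the 40th percentile, with Benjamini-Hochberg adjustment over all of them and a threshold of 0.05. Of these probe sets, 3.13% passed in either direction, 1.63% with higher and 1.5% with lower signals on BMP7 arrays. The 5 member probe sets that entered this test belonged to Ucp2, Ucp3, Ppargc1a and Dio2, and 0 passed. None of the 5 had an unadjusted limma p under 0.05 either, against 21.8% of all tested probe sets, and the smallest adjusted p among them was 0.436. The other 10, which include every probe set of Ucp1, Cidea, Ppargc1b, Elovl3, Cox7a1 and Cox8b, were below the filter and were fitted together with all 22626 non-control probe sets. In that fit 1.54% of probe sets passed, 0.743% with higher and 0.8% with lower signals, and again 0 members passed, while 1 member (Ppargc1b) had an unadjusted p under 0.05, against 16.4% of all. Of the 15 log2 differences 7 were above 0 and 8 below, with a median of -0.05, beside 0.003 over all non-control probe sets. The exact permutation test used for single probe sets below (2-sided, all 70 splits of the 8 arrays) cannot give a p under 0.0286.

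Ucp1, the uncoupling protein that defines brown adipocytes (probe set 1418197_at, chromosome 8 band C2), had signals of 28.9, 20.9, 32.2 and 10.1 on the BMP7 arrays, against 63.9, 28.7, 21.2 and 71.1 on the Vehicle arrays. All 8 values lay in the dimmest part of the array, at percentiles 2.38 to 9.69 of all non-control probe sets on BMP7 arrays and 6.21 to 14.8 on Vehicle arrays. The means were 23.0 ± 9.84 and 46.2 ± 24.9 in BMP7 and Vehicle (SD, n = 4 each), with a log2 difference of -0.62 (95% interval -1.50 to 0.26). The groups overlapped, the exact permutation p was 0.2, and limma's adjusted p without a filter was 0.477. Each of the 8 readings was under the highest bacterial control of its array, although BMP7 3 and Vehicle 1 and 4 were above the median control there (23.6, 19.5 and 32.9). With the hybridisation controls as a covariate the Ucp1 difference was -1.34, with a limma adjusted p of 0.482.

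Ucp2 (1448188_at, chromosome 7 band E1) encodes a mitochondrial carrier related to UCP1 that is expressed widely and is not a heat producer of brown fat in the way UCP1 is. Its signals were 1309, 1383, 1641 and 1500.2 on BMP7 arrays, against 1457, 1118, 2184 and 1438 on Vehicle arrays. The highest and the lowest reading were both Vehicle arrays, and the highest was the array with the raised Actb ratio. The signal was 2.22 to 2.87 times the array median on BMP7 arrays and 2.10 to 4.47 times on Vehicle arrays. BMP7 averaged 1458 ± 145 and Vehicle 1549 ± 451 (SD, n = 4 each), a log2 difference of -0.05 with a 95% interval of -0.54 to 0.44. The exact permutation p was 0.829 and limma's adjusted p 0.919. Over the 8 arrays Ucp2 correlated with the Actb ratio at r = 0.799, given as a description, and Vehicle 3 was the highest in both. Without that array the log2 difference was 0.13. With the Actb ratio as a covariate the log2 difference was 0.14 (limma adjusted p = 0.682). The part of RNA integrity in the Ucp2 values was not tested beyond these fits.

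Ucp3, the uncoupling protein best known from skeletal muscle and also present in brown fat, had 2 probe sets that did not follow each other (r = -0.526 over 8 arrays). The brighter, 1420657_at, read 508, 493, 208 and 398.5 on BMP7 arrays, against 298, 394, 377 and 446 on Vehicle arrays. The dimmer, 1420658_at, read 162, 92.0, 296 and 239 on BMP7 arrays, against 206, 87.6, 99.9 and 228 on Vehicle arrays. BMP7 3 was the lowest array for the brighter probe set and the highest for the dimmer one, so no common pattern of the gene across arrays can be read from them. For the brighter probe set the means were 402 ± 138 and 379 ± 61.5 in BMP7 and Vehicle (SD, n = 4 each), a log2 difference of 0.02 (95% interval -0.68 to 0.72, exact permutation p = 0.943, limma adjusted p = 0.976). The dimmer differed by 0.31 on the log2 scale, with an exact permutation p of 0.514.

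Cidea (1417956_at, chromosome 18) encodes a lipid droplet protein that marks brown adipocytes. It read 13.8, 73.5, 24.7 and 15.7 on BMP7 arrays, against 14.5, 12.5, 16 and 23.7 on Vehicle arrays. Only BMP7 2 stood out, and that value was under the highest bacterial control of its array and above the median one (21.2). The means were 31.9 ± 28.1 and 16.7 ± 4.90 in BMP7 and Vehicle (SD, n = 4 each), with a log2 difference of 0.41, an exact permutation p of 0.343 and a limma adjusted p of 0.655 without a filter.

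Ppargc1a, which encodes the PGC-1α coactivator that cold and cAMP induce in brown fat (chromosome 5 band C1), had 3 probe sets. The brightest, 1437751_at, read 336, 499, 694 and 333 on BMP7 arrays, against 368, 990.4, 421 and 771 on Vehicle arrays. The second, 1456395_at, read 147, 361, 366 and 305 on BMP7 arrays, against 224, 629.6, 379 and 546 on Vehicle arrays. These probe sets moved together over the 8 arrays (r = 0.846), with BMP7 1 and Vehicle 1 low in both and Vehicle 2 and 4 high in both. The brightest averaged 465 ± 171 on BMP7 arrays and 638 ± 295 on Vehicle arrays (SD, n = 4 each), with a log2 difference of -0.39 (95% interval -1.19 to 0.41, exact permutation p = 0.343, limma adjusted p = 0.548). The second averaged 295 ± 102 on BMP7 arrays and 445 ± 180 on Vehicle arrays, with a log2 difference of -0.55 (interval -1.41 to 0.31, exact permutation p = 0.229, limma adjusted p = 0.436). The dimmest, 1460336_at, lay the other way at 0.21, with means of 214 ± 64.7 and 189 ± 89.6 in BMP7 and Vehicle and an exact permutation p of 0.6. For each of the 3 probe sets the groups overlapped.

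Ppargc1b, which encodes the related coactivator PGC-1β (1449945_at, chromosome 18 band E1), read 86.7, 274, 149.9 and 91.8 on BMP7 arrays, against 452, 387, 571 and 286 on Vehicle arrays. Every BMP7 value was lower than every Vehicle value, although BMP7 2 at 274 and Vehicle 4 at 286 nearly met. BMP7 averaged 151 ± 87.3 and Vehicle 424 ± 119 (SD, n = 4 each), a log2 difference of -1.49 with an SE of 0.415 and a 95% interval of -2.40 to -0.58. The exact permutation p was 0.0286, the smallest that 4 against 4 can give. In the fit of all probe sets limma's p was 0.00411 and the adjusted p 0.105, so the difference did not pass. A complete separation was common on these arrays: 11.5% of all non-control probe sets had groups that did not overlap, and 5.6% of all had BMP7 below Vehicle throughout. A log2 difference at or below that of Ppargc1b was found in 1.18% of probe sets. The authors' deposited table gives the same probe set a BMP7 to vehicle ratio of 0.355 and a p-value of 0.0118 before any adjustment for the number of probe sets.

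The Ppargc1b reading was above the highest bacterial control on 2 of 4 BMP7 arrays and on 4 of 4 Vehicle arrays. It also moved with the hybridisation controls, with Pearson r = 0.733 and Spearman rho = 0.738 over the 8 arrays, and less closely with the Actb ratio (r = 0.524). These correlations span both groups and so include the difference between them. Within BMP7 the highest reading came with the lowest control signal (BMP7 2, 11.71), within Vehicle with the highest (Vehicle 3, 13.24). With this covariate 50 of all tested probe sets passed, beside 425 without it. When the signal of the hybridisation controls was added as a covariate, the log2 difference was -1.13 and limma's adjusted p 0.628. That fit cannot fully separate the controls from the treatment. With the Actb ratio as a covariate the values were -1.32 and 0.174. Leaving out each array in turn gave log2 differences between -1.80 and -1.30 and adjusted p between 0.0717 and 0.269. BMP7 was lower in each of these fits, and the adjusted p was above 0.05 in each.

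**Figure D2:**
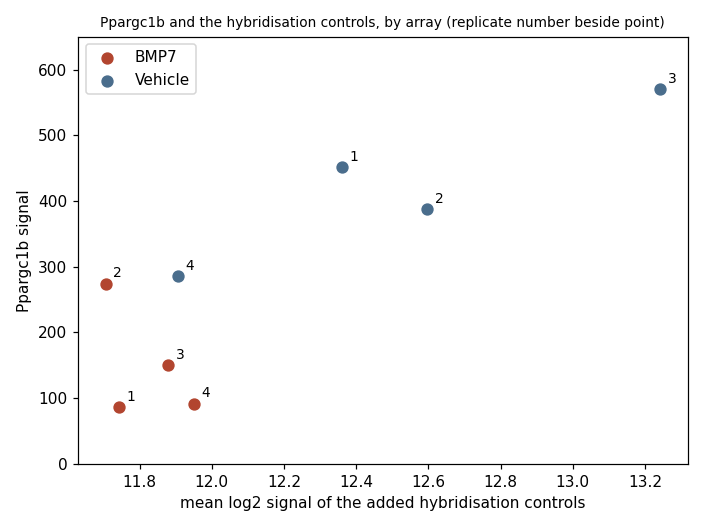
Ppargc1b signal on each array against the mean log2 signal of the 18 hybridisation controls, with BMP7 and Vehicle arrays marked. The 4 BMP7 arrays lie at 11.71 to 11.95 with Ppargc1b at 86.7 to 274, and Vehicle 4, at 11.91, has the lowest Vehicle reading, 286.

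Dio2, the deiodinase that makes active thyroid hormone inside brown adipocytes (chromosome 12 band D3), had 3 probe sets. The brightest, 1418938_at, read 158, 712, 373 and 535 on BMP7 arrays, against 615.5, 541, 492 and 618 on Vehicle arrays. BMP7 1 was the lowest reading and BMP7 2 the highest, with the Vehicle arrays between them. BMP7 averaged 445 ± 236 and Vehicle 567 ± 61.2 (SD, n = 4 each), a log2 difference of -0.52 (95% interval -1.38 to 0.34, exact permutation p = 0.343, limma adjusted p = 0.461). The probe set 1418937_at followed it by Pearson correlation (r = 0.916) and less closely by rank (rho = 0.619), with 10.1, 121, 86.5 and 85.6 on BMP7 arrays, against 154, 69.4, 106 and 91.5 on Vehicle arrays, and differed by -0.59 on the log2 scale (exact permutation p = 0.4). Both differences rested on BMP7 1, without which they were -0.11 and -0.06. The probe set 1426081_a_at did not (r = -0.418 with the brightest and -0.304 with the other). It read 329.9, 310.5, 319 and 53.3 on BMP7 arrays, against 105, 99.3, 239.6 and 191 on Vehicle arrays. BMP7 1, 2 and 3 were above every Vehicle array and BMP7 4 was below them all. The log2 difference was 0.46 with an exact permutation p of 0.543.

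Elovl3, an elongase of very long chain fatty acids that brown fat induces in the cold (1420722_at, chromosome 19 band C3), read 205, 415, 458 and 391 on BMP7 arrays, against 335, 331, 166 and 330.2 on Vehicle arrays. BMP7 2, 3 and 4 were above every Vehicle array and BMP7 1 was below 3 of them. BMP7 averaged 367 ± 111 and Vehicle 290.4 ± 83.3 (SD, n = 4 each), a log2 difference of 0.32 with an exact permutation p of 0.4 and a limma adjusted p of 0.718 without a filter. It was above the highest bacterial control on 4 BMP7 and 3 Vehicle arrays.

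Cox7a1 and Cox8b encode subunit isoforms of cytochrome c oxidase that are typical of heart, muscle and brown fat. Cox7a1 (1418709_at, chromosome 7 band A3) read 72.5, 150, 173 and 78.3 on BMP7 arrays, against 87.5, 190, 97.9 and 110.3 on Vehicle arrays. The ranges nearly coincided, with a log2 difference of -0.06 and an exact permutation p of 0.914. Cox8b (1449218_at, chromosome 7 band F4) read 88.1, 149, 20.3 and 168 on BMP7 arrays, against 45.3, 13.1, 96.0 and 26.8 on Vehicle arrays. BMP7 averaged 106 ± 66.7 and Vehicle 45.3 ± 36.3 (SD, n = 4 each), a log2 difference of 0.94 with a 95% interval of -0.36 to 2.23, an exact permutation p of 0.257 and a limma adjusted p of 0.461 without a filter. This was the largest positive log2 difference among the 15 probe sets, between readings of which only 1, on a BMP7 array, was above the highest bacterial control.

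**Figure D3:**
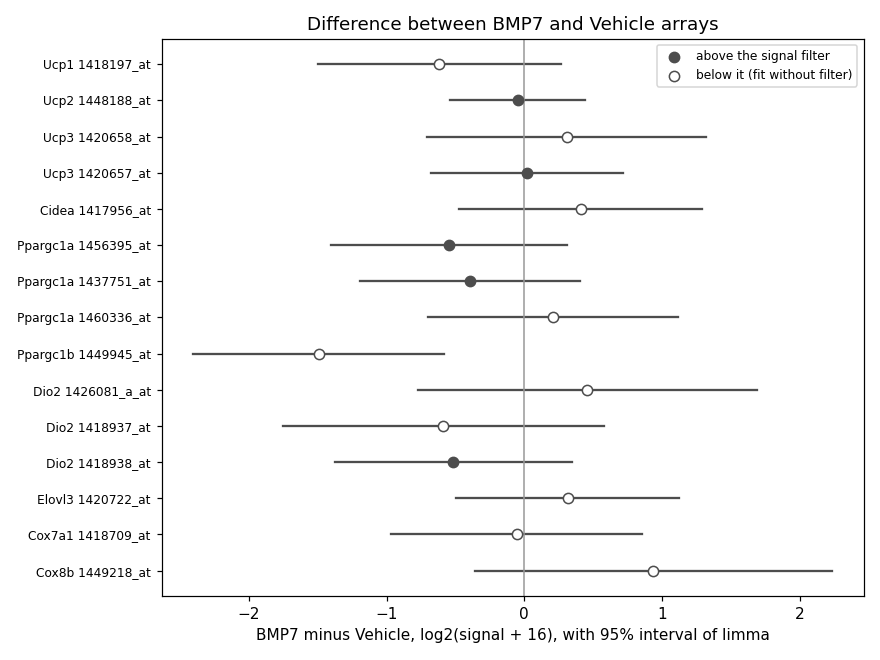
Log2 difference, BMP7 minus Vehicle, of each of the 15 member probe sets on the log2(signal + 16) scale, with 95% intervals from limma, marked by whether the probe set entered the filtered test. The interval of Ppargc1b (-2.40 to -0.58) is the only one that leaves out 0.

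Relatives of the members that are not confined to brown fat were read by the same test, and none of those that entered it passed. Cox7a2, the ubiquitous counterpart of Cox7a1, averaged 23887 ± 1433 on BMP7 arrays and 28619 ± 8042 on Vehicle arrays (SD, n = 4 each), with a log2 difference of -0.22 and a limma adjusted p of 0.513. Cox8a, the ubiquitous counterpart of Cox8b, averaged 10444 ± 1266 on BMP7 arrays and 7682 ± 2627 on Vehicle arrays, with 0.50 and an adjusted p of 0.254. The elongases Elovl1, Elovl5 and Elovl6 gave log2 differences of 0.81, 0.33 and -0.62 with limma adjusted p of 0.205, 0.562 and 0.147. Another tested probe set of Elovl6 differed by -0.19 (limma adjusted p = 0.647). Pprc1, the third PGC-1 family coactivator, averaged 1639 ± 151 on BMP7 arrays and 1164 ± 227 on Vehicle arrays, a log2 difference of 0.50 with a limma adjusted p of 0.171. Cidec, the relative of Cidea found in white fat, was below the filter at 32.4 ± 15.0 on BMP7 arrays and 76.8 ± 41.5 on Vehicle arrays.

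The genes whose signals followed the members most closely over the 8 arrays were taken as the 3 highest Pearson correlations with each member's brightest tested probe set, among about 13041 tested probe sets of other genes. For Ucp2 they were Prelid1 (0.974), Mfge8 and Dgkz (both 0.967), and 110 probe sets had r over 0.9. For Ucp3 they were Hlf (0.939), Blk (0.928) and Amelx (0.898), and for Ppargc1a Edil3 (0.928), Tshz1 (0.924) and Zfp790 (0.923). For Dio2 they were Ccl8 (0.967), Tuba3b (0.958) and Rad51b (0.958). Rank correlations (Spearman rho) were 0.524 for Tuba3b with Dio2, 0.714 to 0.738 for the Ucp3 genes and 0.762 to 0.976 for the rest. These are descriptions over 8 arrays that share their treatment, scaling and the low integrity of Vehicle 3.

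The wider brown fat programme was read from 9 lists, of carriers, activators, repressors, adrenergic and thyroid input, lineage markers, fuel use, elongases and desaturases, lipid droplet proteins and cytochrome c oxidase subunits. They named 168 genes beside the members, of which 150 had a probe set and 103 entered the test with their brightest one. Of the 103, 0 rose and 2 fell (1.94%), beside 3.3% of all 8374 tested genes that passed, 1.56% with higher and 1.73% with lower signals on BMP7 arrays. Of the 103, 23 had an unadjusted limma p under 0.05, a share near the 21.8% of all tested probe sets. Their median log2 difference was -0.13, beside 0.004 over all tested genes. The lists with the most tested genes were fuel use, with 1 fall among 17 genes and a median of -0.15, the activators, with 0 calls among 16 and -0.22, and the carriers, with 1 fall among 15 and -0.01. The cytochrome c oxidase subunits had 0 calls among 12 genes and a median of -0.25, and the elongases and desaturases 0 among 13 and 0.27. The repressors and the adrenergic, cAMP and thyroid genes had 0 calls among 10 each (medians -0.02 and -0.02), and the lineage markers and the lipid droplet proteins 0 among 5 each (-0.08 and -0.22).

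Both genes that fell encode mitochondrial proteins, as many genes of the carrier and fuel use lists do by the choice of these lists. Slc25a37, the mitochondrial iron importer mitoferrin, read 918.5, 899, 1020.2 and 846.5 on BMP7 arrays, against 1549, 2331, 2159 and 2064.5 on Vehicle arrays, and was 2.16-fold lower with BMP7 (log2 -1.11, limma adjusted p = 0.0134). Pdk4, the kinase that shuts down pyruvate oxidation when fatty acids are burned, read 1113, 546, 223.5 and 520.5 on BMP7 arrays, against 5861, 1939, 1839.6 and 2778 on Vehicle arrays, and was 5.20-fold lower (log2 -2.38, limma adjusted p = 0.0252). Neither call held in every refit. That of Slc25a37 was lost without BMP7 2, 3 or 4 (adjusted p up to 0.0616) and with the hybridisation control covariate (0.171). That of Pdk4 was lost without BMP7 2, 3 or 4 or Vehicle 1 (up to 0.0849) and with the same covariate (0.0822).

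Ebf2, a transcription factor of the brown adipocyte lineage that opens thermogenic genes for PPARγ, was below the filter and passed in the fit of all probe sets; it is singled out after its values were seen. Its brightest probe set, 1418494_at, read 38.0, 107.5, 22.3 and 29.5 on BMP7 arrays, against 248, 425, 809 and 299 on Vehicle arrays. The log2 difference was -2.84 with an SE of 0.50, and limma's adjusted p was 0.0198. The reading was above the highest bacterial control on 0 BMP7 and 4 Vehicle arrays, so the size of the difference depends on the pseudocount: it was -3.27 with 1 and -2.11 with 64. Of its other probe sets, 1449102_at was lower without overlap (5.5 to 15.7 on BMP7 arrays, against 92.4 to 362 on Vehicle arrays, adjusted p = 0.0117) and 1449101_at overlapped (32.3 to 118 on BMP7 arrays, against 58.8 to 307 on Vehicle arrays, adjusted p = 0.352). The call of 1418494_at was lost without BMP7 1, 3 or 4 or Vehicle 2 (adjusted p of 0.0517, 0.0805, 0.0722 and 0.0503) and with the hybridisation control covariate (0.338).

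**Figure D4:**
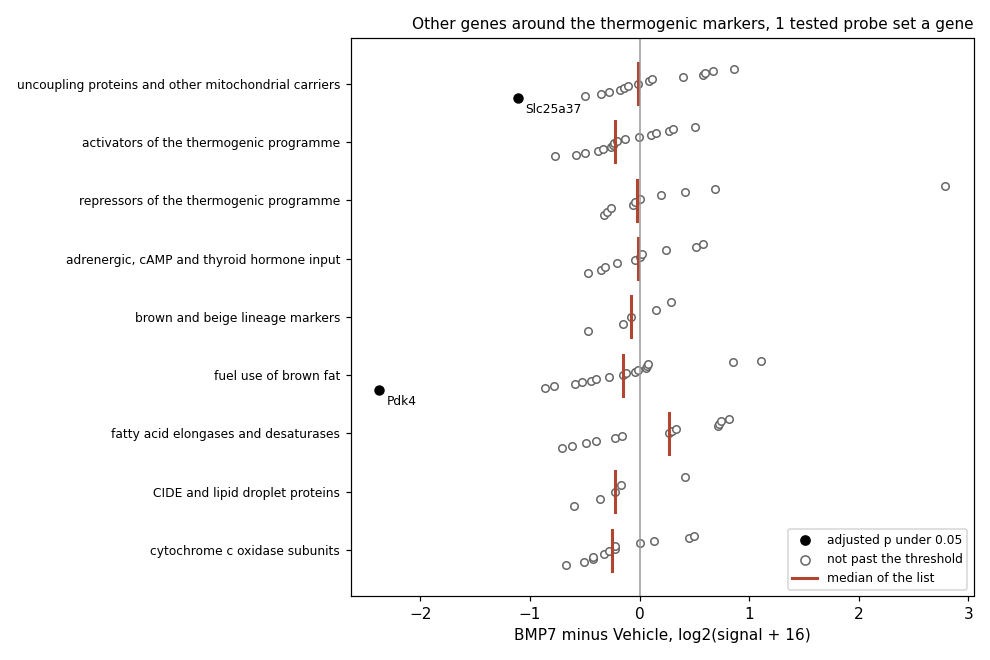
Log2 difference, BMP7 minus Vehicle, of the tested genes of each of the 9 brown fat lists, 1 point per gene, with the median of the list; genes that passed the limma test are marked. Slc25a37 (-1.11) and Pdk4 (-2.38) are the only genes of the 9 lists past the threshold, and the list medians run between -0.25 and 0.27.

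Other genes that are read beside the thermogenic markers gave the following values. Pparg, the master regulator of adipocyte differentiation, averaged 694 ± 63.4 on BMP7 arrays and 1078 ± 334 on Vehicle arrays (SD, n = 4 each), a log2 difference of -0.58 with a limma adjusted p of 0.193. Esrra, the nuclear receptor through which PGC-1 coactivators drive mitochondrial genes, differed by -0.38 (adjusted p = 0.651). The adenine nucleotide carriers Slc25a4 and Slc25a5 differed by -0.15 (adjusted p = 0.560) and 0.60 (adjusted p = 0.143). Fabp4, the fatty acid binding protein of mature adipocytes, was below the filter at 317 ± 198 on BMP7 arrays and 147 ± 83.7 on Vehicle arrays.

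Markers of cell types that could carry these genes were read in the same way. Of 11 general adipocyte markers with a probe set, 5 were above the highest bacterial control on all arrays and 2, the leptin gene Lep and Cidec, on none. The summed signal of that list was 13652 to 16235 on BMP7 arrays and 10399 to 12209 on Vehicle arrays, and 0 of its 5 tested genes passed. Most of that sum was Fabp5, a fatty acid binding protein that many other cells also make, with 9577 ± 924 on BMP7 arrays and 6674 ± 1138 on Vehicle arrays (SD, n = 4 each, limma adjusted p = 0.119). In the same list Cfd (1.03), Fabp4 (0.97), Cebpa (0.84, limma adjusted p = 0.0686), Retn (0.305), Dgat2 (0.28) and Lep (0.17) also had log2 differences above 0. Pparg (-0.58), Cidec (-0.88), the adiponectin gene Adipoq (-1.04) and the lipase gene Lpl (-0.36) had differences of the other sign. The 5 tested genes of the list had a median of 0.305, with 4 above 0 and 1 below. The skeletal muscle list, relevant to Ucp3, Cox7a1 and Cox8b, had 4 of 17 genes above the controls on all arrays and 4 on none, with summed signals of 2885 to 4586 on BMP7 arrays and 2978 to 4277 on Vehicle arrays. The macrophage list, relevant to Ucp2, had 5 of 8 on all arrays and 1, Itgam, on none, with 3034 to 4302 on BMP7 arrays and 3202 to 4401 on Vehicle arrays. The labels name only the mesenchymal cell line, so readings of these 2 lists above the controls were not taken as a sign of muscle cells or macrophages. A reading above the bacterial level does not by itself show that a gene is expressed. The part of these lists in the members' values was not tested. All 12 mesenchymal markers of the labelled cell line were above the controls on all arrays. Of these Ly6a, the stem cell antigen Sca-1, rose 1.86-fold (limma adjusted p = 0.0352), and the receptor gene Pdgfra and the collagen gene Col3a1 were 2.42-fold and 1.80-fold lower (adjusted p of 0.0176 and 0.0268). Another tested probe set of Pdgfra differed by -0.15 (adjusted p = 0.842), so its probe sets disagreed, while another of Col3a1 differed by -1.57 (adjusted p = 0.00424). Each of these 3 calls was lost without BMP7 2, 3 or 4 and without Vehicle 1, and with the hybridisation control covariate (adjusted p of 0.214 for Ly6a, 0.210 for Pdgfra and 0.192 for Col3a1). Those of Ly6a and Col3a1 were also lost without BMP7 1 or Vehicle 2. Of 7 BMP-SMAD targets 6 rose. Hey1 read 1045 to 1367 on BMP7 arrays and 58.4 to 134 on Vehicle arrays, where it was under the highest bacterial control on every array, so no fold is given (limma adjusted p = 3.17e-04). The brightest Id4 probe set had a log2 difference of 2.84, and its others had 4.18 and 2.36. That brightest one was above the highest bacterial control on only 7 of 8 arrays, so no fold is given. Id1, a widely used readout of BMP signalling, rose 1.93-fold with a limma adjusted p of 0.0492. The calls of Hey1, Smad6 and Id4 held when any array was left out, and that of Id1 was lost in 6 of the 8 such fits (adjusted p up to 0.162) and under 5 of 11 other alternatives (up to 0.528).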

How the data were processed

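The labels describe total RNA of C3H10T1/2 cells, labelled with biotin and hybridised to Affymetrix Mouse 430A arrays. The deposited intensity values are MAS5 signals per probe set, scaled by the authors to a common trimmed mean, per the submitters' processing notes and the values themselves; MAS5 subtracts mismatch probes, so low signals are noisy. The authors' deposited table also holds a BMP7 to vehicle ratio and a p-value per probe set, printed only for Ppargc1b. Values per sample came from the table whose columns name the samples; 8 other per-sample columns were not used. Their group means matched the authors' within 1.46e-11. Scanner settings are not stated in the labels.

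Symbols were updated through RefSeq gene identifiers (20828 probe sets found, 5462 symbols changed); 21453 of 22626 non-control probe sets named 1 gene, 482 several and 691 none, and 64 controls were left out. The pseudocount was 16. limma 3.58.1 in R 4.3.3 (lmFit, eBayes with trend) compared BMP7 with Vehicle over 13576 probe sets at or above the 40th percentile, and over all probe sets for those below it, with Benjamini-Hochberg adjustment; the script was tested on simulated data. Exact permutation tests (scipy 1.17.1) covered single probe sets. A gene of a list was read by its brightest probe set. Arrays give no read depth: 4 per group limit the precision. Replicate numbers were not taken to pair the samples. Alternatives were the filter, pseudocount, normalization, array weights, a replicate block, covariates and leaving out each array.

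The members and lists were chosen with earlier results of these data known. The text names all 10 members, up to 3 rises and 3 falls per list, a fixed set of related genes and the 3 most similar genes per tested member; Ebf2 and Trpv4 were chosen after their values were seen. Sequences are RefSeq promoters (GRCm38.p6), 7 of 10 members matched.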

Additional observations from a re-analysis of the deposited data

Results flagged for a closer look

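Each group of 4 arrays was examined for 36 member and named probe sets, 72 groups in all, for a sample whose gap to its nearest neighbour took up more of the group's range than Dixon's 95% critical value allows. Chance gives about 1 such group in 20, and 2 of the 72 met it. The Dio2 probe set 1426081_a_at read 53.3 on BMP7 4, against 310.5 to 329.9 on the other BMP7 arrays. Without that array its log2 difference was 1.03, with a limma adjusted p of 0.347 in the fit of all probe sets. The Elovl3 probe set read 165.6 on Vehicle 3, the array with the raised Actb ratio, against 330.2 to 334.6 on the other Vehicle arrays. Without that array its log2 difference was 0.08, with a limma adjusted p of 0.934.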

How the results depend on the processing

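Of the members' probe sets, 0 passed under each of 36 alternatives. Those that kept a filter tested only 5 of the 15, or 1 under a stricter filter, so the rest could not pass there. Of the probe sets tested there, 0 had an unadjusted limma p under 0.05. Without the filter all 15 were fitted, and 1 had an unadjusted limma p under 0.05, or 2 when BMP7 3 or BMP7 4 was left out. In the main fits 3.13% of all probe sets passed with the filter and 1.54% without it, so a count of 0 does not set the members apart. The count of all probe sets past the threshold, 425 here, was 1778 with array weights, 652 with the replicate block and 50 with the hybridisation control covariate, and leaving out each array gave 90 to 1084 (213, 92, 90 and 113 without BMP7 1, 2, 3 and 4; 150, 313, 707 and 1084 without Vehicle 1, 2, 3 and 4). The other brown fat genes past the threshold, 2 here, were 4 with a pseudocount of 64, 18 with array weights (6 rose, 12 fell), 5 with the replicate block, 5 with the Actb covariate, 7 when the probe sets of a gene were averaged (3 rose, 4 fell) and 0 with the hybridisation control covariate (11 at an unadjusted limma p under 0.05). Leaving out each array gave 0 to 5, with 0 without BMP7 2, 3 or 4 (16, 14 and 12 at an unadjusted limma p under 0.05). The Ucp2 log2 difference changed sign with array weights (0.055), the Actb covariate (0.143) and the hybridisation control covariate (0.268), and ran between -0.19 and 0.128 leaving out each array. That of Ucp3 1420657_at changed sign with quantile normalization (-0.041), median centring (-0.068) and the hybridisation control covariate (-0.125), and ran between -0.113 and 0.296 leaving out each array. With the hybridisation control covariate the Ucp1 difference was -1.341, beside -0.618, and Elovl3 (-0.12) and Ucp3 1420658_at (-0.156) changed sign. Cox7a1 changed sign with array weights (0.064) and ran between -0.247 and 0.155 leaving out each array. The cause was not tested. Ppargc1b, which lies below the filter, ran between -1.80 and -1.13 over the alternatives, with limma adjusted p of 0.0717 to 0.628 in those fitted without the filter. Deviations of arrays with the same replicate number correlated at 0.383, 0.036, 0.152 and 0.187. Those of arrays with different numbers ran between -0.223 and -0.011, apart from BMP7 2 with Vehicle 4 (0.114). Whether the replicate numbers mark pairs or a shared batch was not tested. The main fits did not use the numbers, and the replicate block changed no member's call. The precision is limited by 4 arrays per group and, for 10 of 15 member probe sets, by signals below the filter.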

Other observations

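Trpv4, an ion channel known to hold thermogenic genes down in adipocytes, had the largest positive difference among the repressors and is given after its values were seen. It read 1861, 1241, 1203 and 1368 on BMP7 arrays, against 685.7, 48.9, 50.9 and 555 on Vehicle arrays. The groups did not overlap, the log2 difference was 2.79, and limma's adjusted p was 0.0632 in the filtered test, so it did not pass. The reading was above the highest bacterial control on 4 BMP7 and 2 Vehicle arrays, and the Vehicle arrays near 50 were Vehicle 2 and 3, those with the highest hybridisation controls. With these controls as a covariate, in the fit of all probe sets, the log2 difference was 0.96 and the adjusted p 0.761, against 2.79 and 0.0906 without it. In that fit, leaving out Vehicle 4 gave an adjusted p of 0.0374.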
